A study of Mus musculus with 30 samples.

Results

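The endothelial marker genes described here are Emcn, Cdh5, Kdr, Erg, Pecam1, Tek, Tie1, Apln, Aplnr and Cd34. They were chosen by symbol, and each had 1 row in the deposited table of log2 expression values, so the set held 10 of the 23986 gene symbols measured. These members and the further gene lists below were chosen with earlier results of these data known, so counts over them are a description. The study directed mouse embryonic stem cells (ESCs) of the line 1B10, a single line kept on mitomycin C-treated mouse embryonic fibroblasts as feeders, towards kidney in steps and set the products beside mouse kidneys. Mesoderm cells were obtained by priming with Fgf2 and activin A followed by Bmp4, activin A and Fgf2, intermediate mesoderm cells by Y27632, retinoic acid and activin A, and renal progenitors by Bmp7 and Fgf2, all in flat culture. Organoids were made by aggregating progenitors on a filter at the air-liquid interface, in serum-containing medium throughout. This medium held Y27632 at first, then CHIR99021 and Bmp7, and then no added factor. Organoids were taken after 8, 14 and 21 days (8D, 14D and 21D organoids). The other groups were whole E12.5, E13.5 and adult mouse kidneys that were dissected and flash frozen. All cells and organoids thus share the ESC line and the feeder origin. No sort of endothelial cells is described, so every array measured a mixture. The labels give neither the strain nor the age of the mice, and do not say whether replicates came from separate cultures or animals, so p-values measure only the spread between these arrays.

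Endothelial cells line blood vessels. They arise from mesoderm that responds to VEGF-A through the receptor tyrosine kinase Kdr, and ETS transcription factors such as Erg keep the endothelial genes active. Cdh5 (VE-cadherin) and Pecam1 hold neighbouring endothelial cells together, Emcn (endomucin) and Cd34 are sialomucins of the vessel surface, Tek and Tie1 are the receptors of the angiopoietin pathway, and Aplnr is the G protein-coupled receptor of the peptide apelin, which Apln encodes. In the kidney these cells form the glomerular and peritubular capillaries. Several of the genes are not limited to endothelium: Pecam1 is also made by mouse ESCs, Kdr by early mesoderm, and Cd34 by blood and stromal progenitors.

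Promoter sequences are shown for Emcn, Kdr and Tie1, because Emcn was the member that stood apart in progenitors while Kdr and Tie1 moved with Erg, an ETS factor. Each is the RefSeq window (GRCm38.p6) of 250 bases before and 50 bases after the gene start, read 5′ to 3′ on the strand of the gene, and capitals mark the longer ETS motifs AGGAAG and CCGGAA on either strand. The Emcn window is chr3:137340828-137341127 on the + strand, the Kdr window chr5:75978406-75978705 on the - strand and the Tie1 window chr4:118489800-118490099 on the - strand.
Emcn: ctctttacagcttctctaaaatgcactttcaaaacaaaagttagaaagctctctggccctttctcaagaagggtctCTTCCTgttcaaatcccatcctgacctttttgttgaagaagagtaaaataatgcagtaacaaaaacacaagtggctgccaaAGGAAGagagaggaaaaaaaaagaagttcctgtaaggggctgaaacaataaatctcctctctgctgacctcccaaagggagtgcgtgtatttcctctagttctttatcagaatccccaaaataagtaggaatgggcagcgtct
Kdr: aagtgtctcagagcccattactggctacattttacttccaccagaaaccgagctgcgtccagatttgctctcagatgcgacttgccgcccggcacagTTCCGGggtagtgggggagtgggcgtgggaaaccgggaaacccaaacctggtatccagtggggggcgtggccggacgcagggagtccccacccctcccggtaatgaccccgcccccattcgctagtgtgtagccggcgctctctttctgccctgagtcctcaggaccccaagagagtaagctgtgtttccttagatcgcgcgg
Tie1: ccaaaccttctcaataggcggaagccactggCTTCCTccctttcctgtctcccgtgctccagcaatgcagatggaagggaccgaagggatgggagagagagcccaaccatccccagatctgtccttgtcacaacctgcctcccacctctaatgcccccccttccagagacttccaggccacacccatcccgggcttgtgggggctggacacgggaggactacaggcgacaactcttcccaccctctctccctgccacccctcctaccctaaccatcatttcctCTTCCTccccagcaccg
The Emcn and Tie1 windows each held 2 matches to AGGAAG, and the Kdr window held 1 match to CCGGAA. RefSeq windows were at hand for 7 of the 10 members and numbered 9, since Erg has 3. AGGAAG occurred in 5 of the 9 member windows and in 35.4% of all 32851 promoter windows, and CCGGAA in 1 of 9 and in 14.9%. The short ETS core GGAA was in 9 of 9 and in 96.0% of all windows, so its presence sets no window apart. These matches describe letters in the windows, and no binding was measured.

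Each group had 3 Affymetrix microarrays, 30 in all, and this small number sets the precision. Array medians lay between 5.757 and 5.941 on the log2 scale. By the labels, batch 1 holds replicate 1 of the E13.5 kidneys and of the 4 groups from ESC to progenitor, and batch 2 holds the other 25 arrays. Adult tubule markers separated the adult kidneys from all other groups, with a mean log2 value over 8 genes of 11.10 to 11.31 on the adult arrays and 4.97 to 5.59 on the others. Pluripotency markers were at a mean of 9.06 to 9.52 over 8 genes in ESCs and 4.83 to 5.25 in kidneys. They reached 8.32 on progenitor replicate 1, 7.11 on replicate 2 and 5.61 on replicate 3, and 6.76 to 8.72 on the organoid arrays, so these cultures differed in how much pluripotency RNA they held. In embryonic kidneys the mean of every member lay above these array medians, while ESCs, which hold no vessels, had a mean Pecam1 value of 9.39 beside 9.04 in these kidneys.

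**Figure D1:**
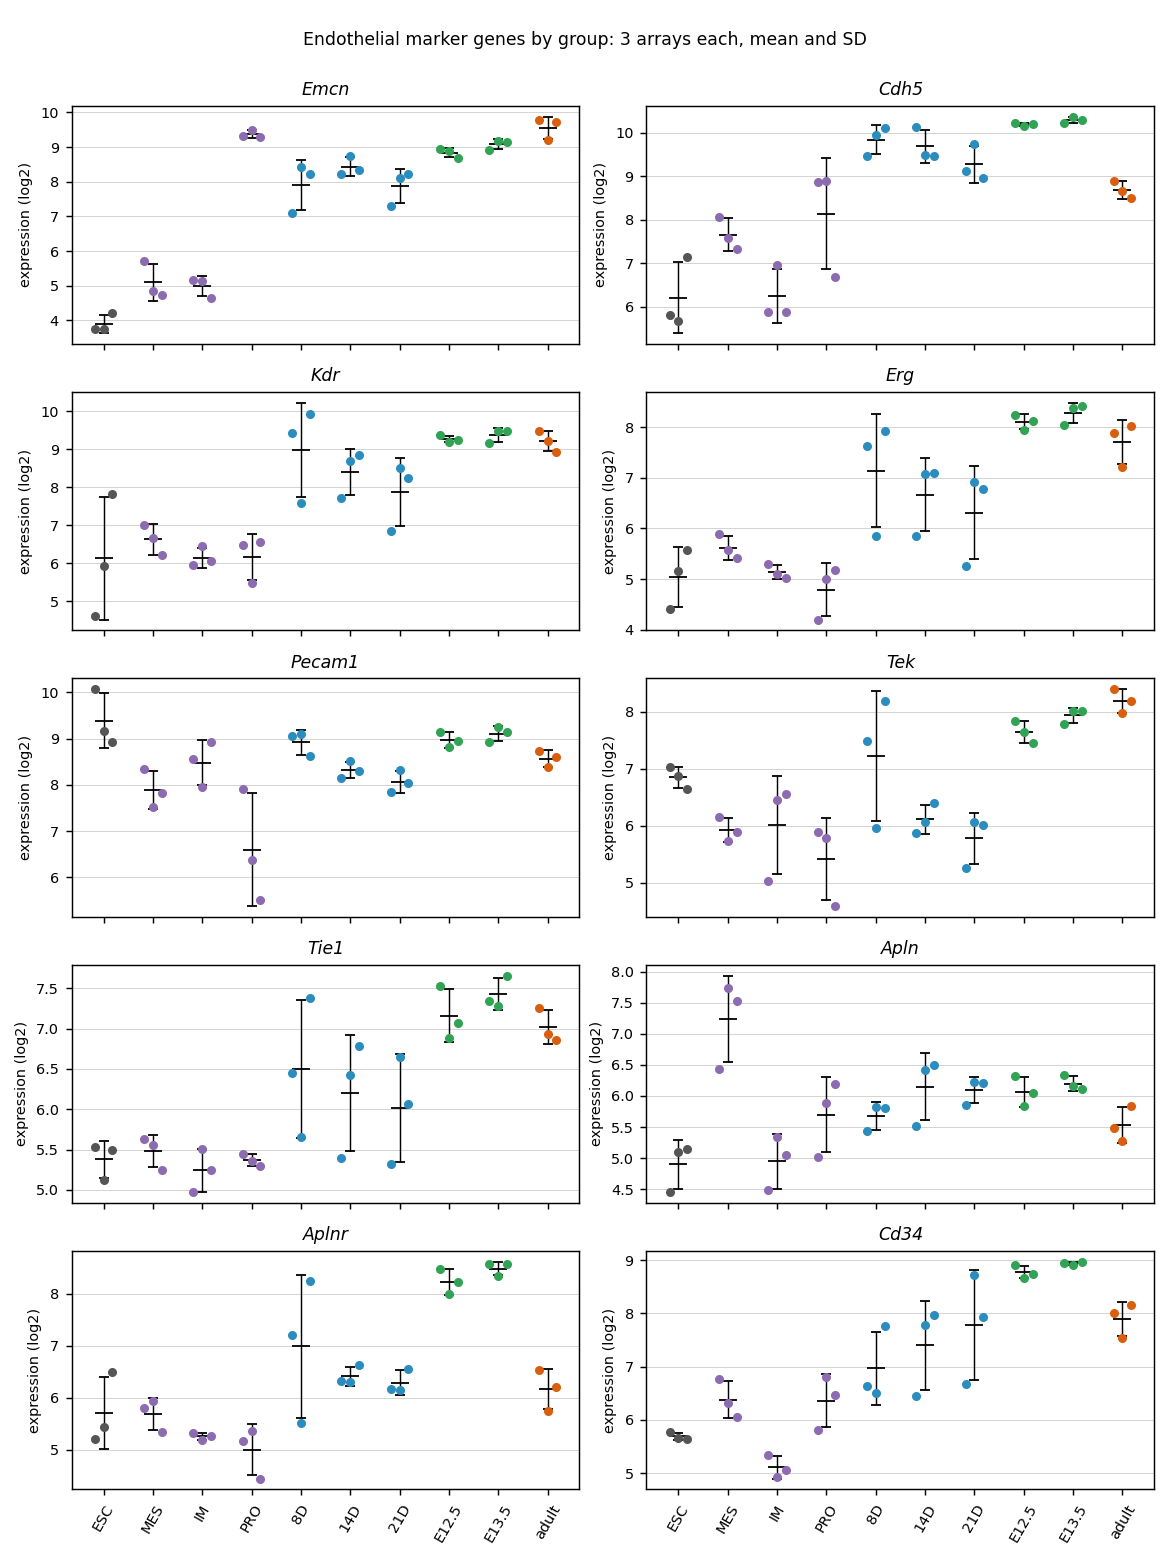
Expression (log2, y axis) of the 10 endothelial marker genes in the 10 groups (x axis; MES, mesoderm; IM, intermediate mesoderm; PRO, progenitor). Points are the 3 arrays of a group in the order of their replicate numbers and bars are mean ± SD. Emcn was at 9.29 to 9.49 in progenitors, while Kdr, Erg, Tie1 and Aplnr did not exceed 6.55, 5.17, 5.45 and 5.37 there.

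The surface sialomucin Emcn showed the widest range of the members, with group means from 3.90 in ESCs to 9.56 in adult kidneys. Its log2 values were 3.75, 3.74 and 4.21 in ESCs, 5.71, 4.86 and 4.73 in mesoderm and 5.16, 5.15 and 4.66 in intermediate mesoderm. All of these lay below the lowest array median of 5.757. In progenitors the values were 9.32, 9.49 and 9.29, above every intermediate mesoderm array and above every embryonic kidney array (8.69 to 9.18 over 6, median 8.93). The rise from intermediate mesoderm to progenitor was 4.38 ± 0.29 on the log2 scale (fitted difference ± SE, 20.8-fold, adjusted p = 1.69e-09 by limma). Organoid arrays were lower, at 7.09, 8.43 and 8.22 for 8D, 8.21, 8.73 and 8.35 for 14D and 7.31, 8.11 and 8.22 for 21D, and the adult kidneys were at 9.77, 9.19 and 9.73. Against embryonic kidneys the fitted difference was -1.03 ± 0.25 at 8D and -1.06 ± 0.25 at 21D (adjusted p = 0.00485 and 0.00268), and at 14D, where replicate 2 lay inside the embryonic range, it did not pass (-0.51 ± 0.25, adjusted p = 0.183). The difference of progenitors from embryonic kidneys did not pass either (0.39 ± 0.25, adjusted p = 0.255), although the arrays did not overlap.

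Cdh5, the cadherin of endothelial junctions, was at 5.80, 5.67 and 7.15 in ESCs, 8.06, 7.58 and 7.32 in mesoderm and 5.89, 6.96 and 5.88 in intermediate mesoderm. Mesoderm was the only early stage whose 3 arrays all lay above those of ESCs. In progenitors replicates 1 and 2 were at 8.87 and 8.88 and replicate 3 was at 6.68, below both. The 9 organoid arrays ran from 8.95 to 10.12 and the 6 embryonic kidney arrays from 10.15 to 10.37, with no overlap between them. Adult kidneys were lower, at 8.89, 8.67 and 8.49. Progenitor replicate 3 was also the array with the least pluripotency RNA (5.61) and the lowest Pecam1, Tek and Aplnr of its group, and the part of culture composition in this was not tested.

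Pecam1, an adhesion molecule of endothelial junctions, was highest in ESCs, at 10.07, 9.17 and 8.93. It was at 8.34, 7.51 and 7.83 in mesoderm, 8.57, 7.96 and 8.92 in intermediate mesoderm, and 7.92, 6.37 and 5.51 in progenitors, the lowest group. Among the progenitor arrays the order of Pecam1 was that of the pluripotency list (8.32, 7.11 and 5.61). Organoids held 9.05, 9.10 and 8.62 at 8D, 8.15, 8.52 and 8.29 at 14D and 7.84, 8.33 and 8.05 at 21D, and the pluripotency list in these 3 groups averaged 8.31, 7.57 and 7.42. In embryonic kidneys Pecam1 was at 8.82 to 9.26 (median 9.04), with the pluripotency list at no more than 5.18. The part of undifferentiated cells in the Pecam1 value of progenitors and organoids was not tested.

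Cd34, which the study used as a marker of endothelial progenitors, was at 5.77, 5.67 and 5.64 in ESCs, 6.76, 6.31 and 6.06 in mesoderm and 5.35, 4.93 and 5.06 in intermediate mesoderm. Progenitors were at 5.82, 6.80 and 6.47, above intermediate mesoderm on every array. Embryonic kidneys were at 8.67 to 8.97 (median 8.91), above every progenitor array. By quantitative PCR, the paper described its progenitor markers, Cd34 among them, as similar in level to E13.5 kidney cells. PCR and array values are different measures, and the difference between them was not tested. Organoid values were 6.64, 6.50 and 7.76 at 8D, 6.45, 7.78 and 7.98 at 14D and 6.68, 8.72 and 7.94 at 21D. Replicates 2 and 3 of the 14D and 21D groups were at or above the lowest adult value (8.01, 7.54 and 8.15 in adult kidneys), and replicate 1 of both was below it.

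Kdr, the main VEGF receptor of endothelium, was uneven in ESCs, at 4.62, 5.94 and 7.83. ESC replicate 3 was also the highest of its group for Cdh5, Erg and Aplnr, for the VEGF receptor Flt1 (8.72 against 5.72 and 7.46) and for the list of early mesoderm markers (mean 7.33 against 5.66 and 6.54), whose part in these values was not tested. Kdr was at 7.01, 6.67 and 6.22 in mesoderm, 5.95, 6.45 and 6.05 in intermediate mesoderm and 6.48, 5.47 and 6.55 in progenitors, so these 3 stages overlapped. The 8D organoids were at 9.42, 7.58 and 9.94, all above the progenitors, and replicates 1 and 3 lay within or above the embryonic range of 9.17 to 9.49 (median 9.31). Values were 7.71, 8.68 and 8.84 at 14D, 6.85, 8.50 and 8.25 at 21D and 9.49, 9.23 and 8.94 in adult kidneys.

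The ETS factor Erg was low at every stage before the organoids, at 4.40, 5.15 and 5.58 in ESCs, 5.89, 5.57 and 5.42 in mesoderm, 5.30, 5.11 and 5.02 in intermediate mesoderm and 4.20 to 5.17 in progenitors (mean 4.79, SD 0.52, n = 3). Embryonic kidneys were at 7.95 to 8.41 (median 8.19). Organoid values were at 7.63, 5.86 and 7.93 for 8D, 5.85, 7.08 and 7.10 for 14D and 5.25, 6.91 and 6.77 for 21D. Every 8D array exceeded every progenitor array, and no 8D array reached the lowest embryonic array. Adult kidneys were at 7.88, 7.22 and 8.03. Tie1, an orphan receptor that modulates Tek signalling, spanned 4.97 to 5.63 on the 12 arrays from ESC to progenitor. It was at 6.45, 5.66 and 7.38 in 8D, 5.40, 6.42 and 6.79 in 14D and 5.32, 6.65 and 6.07 in 21D organoids. Kidneys lay above nearly all of these, at 6.89 to 7.66 (median 7.31) for the embryonic and 7.26, 6.94 and 6.86 for the adult arrays, and 8D replicate 3 was the organoid array inside their range.

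Tek, the receptor of the angiopoietins, differed from Tie1 in being present in ESCs, at 7.03, 6.88 and 6.65, above every mesoderm, intermediate mesoderm and progenitor array. Progenitors were at 5.89, 5.78 and 4.59. Values in 8D organoids were 7.49, 5.96 and 8.19, and those of 14D (5.88, 6.07 and 6.40) and 21D organoids (5.26, 6.07 and 6.01) lay below 8D replicates 1 and 3. Embryonic kidneys were at 7.46 to 8.02 (median 7.81) and adult kidneys at 8.40, 7.98 and 8.20.

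The apelin ligand and its receptor followed different courses. Apln was at 4.45, 5.10 and 5.15 in ESCs and at 6.44, 7.74 and 7.53 in mesoderm, and then at 4.48, 5.34 and 5.05 in intermediate mesoderm, so mesoderm stood above both of its neighbours on every array. Progenitors were at 5.02, 5.88 and 6.19, and the organoid and kidney arrays together spanned 5.27 to 6.50. Aplnr did not share the mesoderm peak, with 5.20, 5.44 and 6.50 in ESCs and 5.81, 5.93 and 5.34 in mesoderm. It was lowest in progenitors, at 5.18, 5.37 and 4.45, and highest in embryonic kidneys, at 7.99 to 8.56 (median 8.41). The 8D organoids were at 7.21, 5.52 and 8.24, the 14D organoids at 6.32, 6.30 and 6.62 and the 21D organoids at 6.16, 6.14 and 6.56. Adult kidneys, at 6.54, 5.75 and 6.20, overlapped the late organoids and lay below every embryonic array.

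**Figure D2:**
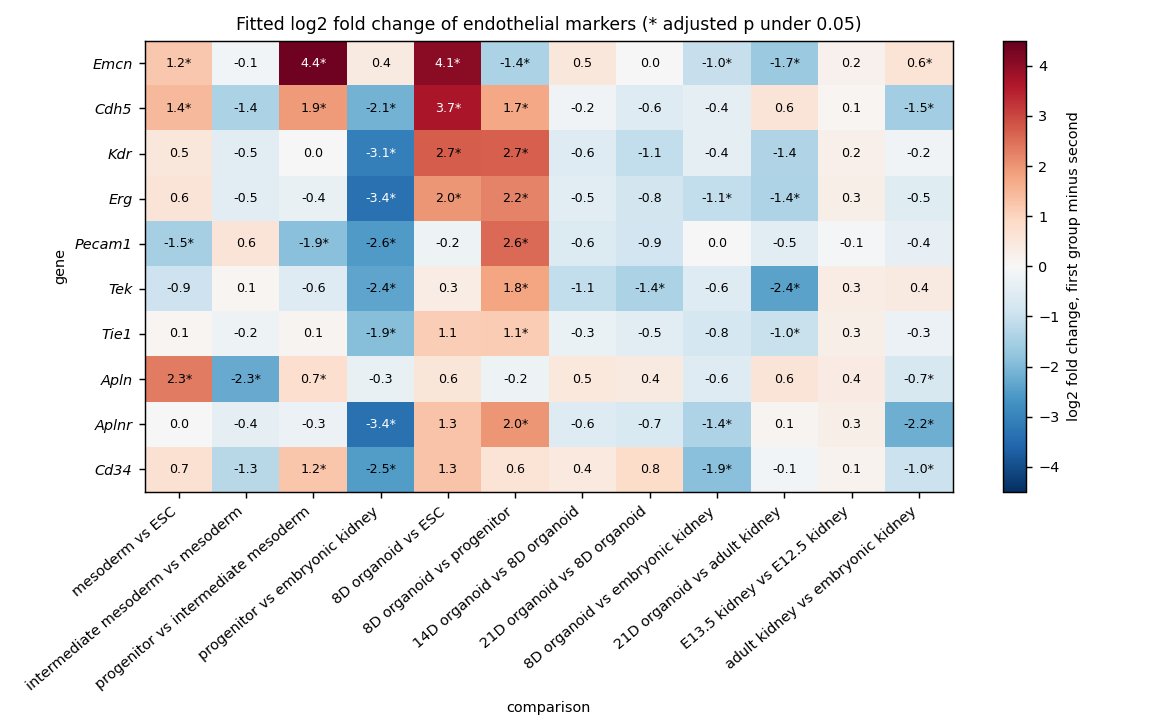
Fitted log2 fold change of the 10 genes (rows) in the 12 comparisons (columns), first group minus second, with red for higher and blue for lower in the first group. Asterisks mark an adjusted p under 0.05, and the 8 asterisks under progenitor vs embryonic kidney are all on negative values.

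The comparisons were read from a single limma model of all 30 arrays with a batch term, with Benjamini-Hochberg adjustment over all 23986 genes and a call at an adjusted p under 0.05. Differences are fitted log2 fold changes ± SE and can depart slightly from the differences of the group means. The SE of each gene uses a single residual spread shared by all 10 groups. In 8D organoids the SD was 1.37 for Aplnr and 1.12 for Erg, against pooled within-group SDs of 0.55 and 0.60. Where a group varied more than the pooled value, the SE and p-value understate its spread. Comparisons that share a group share its arrays and are not independent. In RNA from mixtures, fewer cells of a type and less RNA per cell cannot be told apart.

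Mesoderm induction raised Apln, Cdh5 and Emcn and lowered Pecam1. Against ESCs, Apln rose by 2.34 ± 0.25 (adjusted p = 1.89e-06), Cdh5 by 1.44 ± 0.44 (adjusted p = 0.0310) and Emcn by 1.20 ± 0.29 (adjusted p = 0.00792), and Pecam1 fell by 1.50 ± 0.32 (adjusted p = 0.00285). Higher calls thus numbered 3 of 10 members, where 5.86% of all genes were called higher, and lower calls 1 of 10, where 5.80% were. Every Emcn array of both groups lay below the lowest array median of 5.757. Kdr, a gene of early mesoderm, did not pass (0.50 ± 0.58, adjusted p = 0.695). In the same comparison 7 of 10 fibroblast and feeder markers were called lower (median -1.79, group mean of the list 7.96 in ESCs and 6.37 in mesoderm), as were 2 of 8 pluripotency markers (9.28 and 8.44), and their part was not tested. The Emcn and Cdh5 calls were lost among the batch 2 arrays alone (0.82 and 1.04, adjusted p = 0.207 and 0.305) and without mesoderm replicate 1 or ESC replicate 1, which left 1 higher call, and the Cdh5 call also without replicate 2 of either group.

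The next step, from mesoderm to intermediate mesoderm, was marked by the loss of Apln, which fell by 2.28 ± 0.25 (adjusted p = 6.83e-06). This was the 1 member called lower, with 3.90% of all genes called lower, and 0 of 10 members were called higher, with 3.15% of genes called higher. At an unadjusted p under 0.05 limma gave 0 members higher and 3 lower, with 4629 of 23986 genes below that level in either direction. The other members below that level were Cdh5 (-1.41 ± 0.44, adjusted p = 0.0506) and Cd34 (-1.27 ± 0.40, adjusted p = 0.0579), whose arrays did not overlap between the stages. The Apln peak was thus limited to mesoderm among the early stages, with values at 4.90 ± 0.39 before and 4.95 ± 0.44 after (mean ± SD, n = 3).

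Progenitor formation raised Emcn, Cdh5, Cd34 and Apln. Against intermediate mesoderm, Cdh5 rose by 1.90 ± 0.44 (adjusted p = 0.00200), Cd34 by 1.25 ± 0.40 (adjusted p = 0.0232) and Apln by 0.74 ± 0.25 (adjusted p = 0.0276), beside Emcn as given. The Cdh5 arrays overlapped between the stages, and its call was lost among the batch 2 arrays alone (1.36, adjusted p = 0.0703) and with the arrays of the compared groups alone (adjusted p = 0.112). The Apln arrays overlapped as well, and its call was lost without the batch term (adjusted p = 0.0872). Both Apln means, 4.95 and 5.70, lay below the lowest array median of 5.757. Pecam1 fell by 1.88 ± 0.32 (adjusted p = 0.000104). The 4 higher calls of 10 stood against 10.7% of all genes and the 1 lower call against 15.9%. The receptors Kdr, Tek, Tie1 and Aplnr and the factor Erg did not pass, with fitted differences from -0.60 to 0.13. Both the Apln and the Cd34 call were lost without progenitor replicate 2 or 3 or intermediate mesoderm replicate 3, which left 2 higher calls each time, and 1 of them without intermediate mesoderm replicate 1 or 2. The list of fibroblast and feeder markers moved at the same step, from a mean of 7.28 to 7.54 over 10 genes on the intermediate mesoderm arrays to 9.34 to 10.04 on the progenitor arrays, and its part in these differences was not tested.

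Most members were lower in progenitors than in embryonic kidneys. Lower calls covered 8 of 10 members, where 20.0% of all genes were called lower, and 0 were called higher, where 14.2% of genes were. At an unadjusted p under 0.05 limma also gave 0 higher and 8 lower, with 10333 of 23986 genes below that level in either direction. The log2 difference was -3.35 ± 0.37 for Aplnr (adjusted p = 1.74e-07), -3.35 ± 0.39 for Erg (adjusted p = 3.90e-07) and -3.09 ± 0.50 for Kdr (adjusted p = 3.51e-05). Pecam1 and Cd34 were lower by 5.88-fold and 5.66-fold, Tek by 5.14-fold, Cdh5 by 4.34-fold and Tie1 by 3.80-fold. The members that did not pass were Emcn, given above, and Apln (-0.33 ± 0.22, adjusted p = 0.260). The median over the members was -2.43, against 0.02 over all genes. The count of 8 held when any single array of either group was left out.

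In 8D organoids 7 of 10 members were called higher than in progenitors, with 11.7% of all genes called higher. All 7 were among the 8 members lower in progenitors than in embryonic kidneys. Both comparisons use the same progenitor arrays, so this overlap is no separate result. Cd34, the other of the 8, did not pass (0.62 ± 0.41, adjusted p = 0.333). Kdr rose by 2.69 ± 0.59 (adjusted p = 0.00212), Pecam1 by 2.56 ± 0.33 (adjusted p = 9.91e-06), Erg by 2.25 ± 0.45 (adjusted p = 0.00105) and Aplnr by 1.98 ± 0.43 (adjusted p = 0.00195). Tek rose by 1.77 ± 0.43 (adjusted p = 0.00447), Cdh5 by 1.73 ± 0.45 (adjusted p = 0.00742) and Tie1 by 1.13 ± 0.36 (adjusted p = 0.0280), while Emcn fell by 1.41 ± 0.30 (adjusted p = 0.00156). The 1 lower call stood against 7.69% of all genes. Markers of other cells moved at the same step: 5 of 8 pluripotency markers were called higher (group mean of the list 7.01 in progenitors and 8.31 in 8D organoids), as were 4 of 10 early mesoderm markers (5.46 and 6.76) and 4 of 14 blood and myeloid markers (5.19 and 5.56), and 3 of 10 fibroblast and feeder markers were called lower (9.79 and 9.01). Their part in the members' differences was not tested. Cdh5 was no longer called without progenitor replicate 3 (0.90, adjusted p = 0.0998), and Tie1 was lost without progenitor replicate 2 or 3 or without 8D replicate 1 or 3 (adjusted p = 0.0651 to 0.195). With only the arrays of these 2 groups in the fit, and so only their own spread, Pecam1 was the 1 member called, as higher.

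Against ESCs, the 8D organoids were higher in Emcn (4.05 ± 0.30, adjusted p = 7.22e-09), Cdh5 (3.66 ± 0.45, adjusted p = 1.84e-05), Kdr (2.73 ± 0.59, adjusted p = 0.00512) and Erg (1.99 ± 0.45, adjusted p = 0.00761). That was 4 of 10 members, with 3.59% of all genes called higher, and 0 lower, with 4.33% of genes called lower. At an unadjusted p under 0.05 limma gave 8 higher and 0 lower, with 5050 of 23986 genes below that level in either direction. Tie1 (1.12 ± 0.36) and Cd34 (1.29 ± 0.41) each had an adjusted p of 0.0554. Without 8D replicate 2 the count rose to 7, with Tie1, Aplnr and Cd34 added, and without 8D replicate 3 the Erg call was lost (1.60, adjusted p = 0.0703). With the arrays of these groups alone in the fit, the Kdr and Erg calls were both lost (adjusted p = 0.262 and 0.211). Pecam1 and Tek, which ESCs already held, did not pass (-0.23 ± 0.33 and 0.34 ± 0.43).

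No member was called higher at 14D or 21D than at 8D. At 21D 2 members had positive fitted differences and 8 negative ones. The positive ones, Cd34 (0.82 ± 0.40, adjusted p = 0.215 by limma) and Apln (0.42 ± 0.25, adjusted p = 0.318), did not pass. Every 21D array of Apln nevertheless lay above every 8D array. Between 14D and 8D organoids 0 of 10 members were called in either direction by limma, with 1.63% of all genes called higher and 0.442% called lower. At an unadjusted p under 0.05 there were 0 higher and 1 lower (Tek, -1.10 ± 0.42, adjusted p = 0.170), with 4037 of 23986 genes below that level in either direction. Between 21D and 8D organoids Tek fell by 1.43 ± 0.42 (adjusted p = 0.0267), 1 lower call of 10 against 5.54% of genes, and 0 were called higher, against 5.95%. At an unadjusted p under 0.05 limma gave 0 higher and 2 lower, the second being Pecam1 (-0.85 ± 0.32, adjusted p = 0.0871). Below that level were 5873 of 23986 genes in either direction. The Tek call was lost without 8D replicate 1, 8D replicate 3 or 21D replicate 1. Without 8D replicate 2, Kdr, Erg, Tek and Aplnr were all called lower at 21D, and Tek and Aplnr already at 14D. Without 21D replicate 1, Cd34 was called higher at 21D (1.36, adjusted p = 0.0268). Between 21D and 14D organoids no member had an adjusted p below 0.787.

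**Figure D3:**
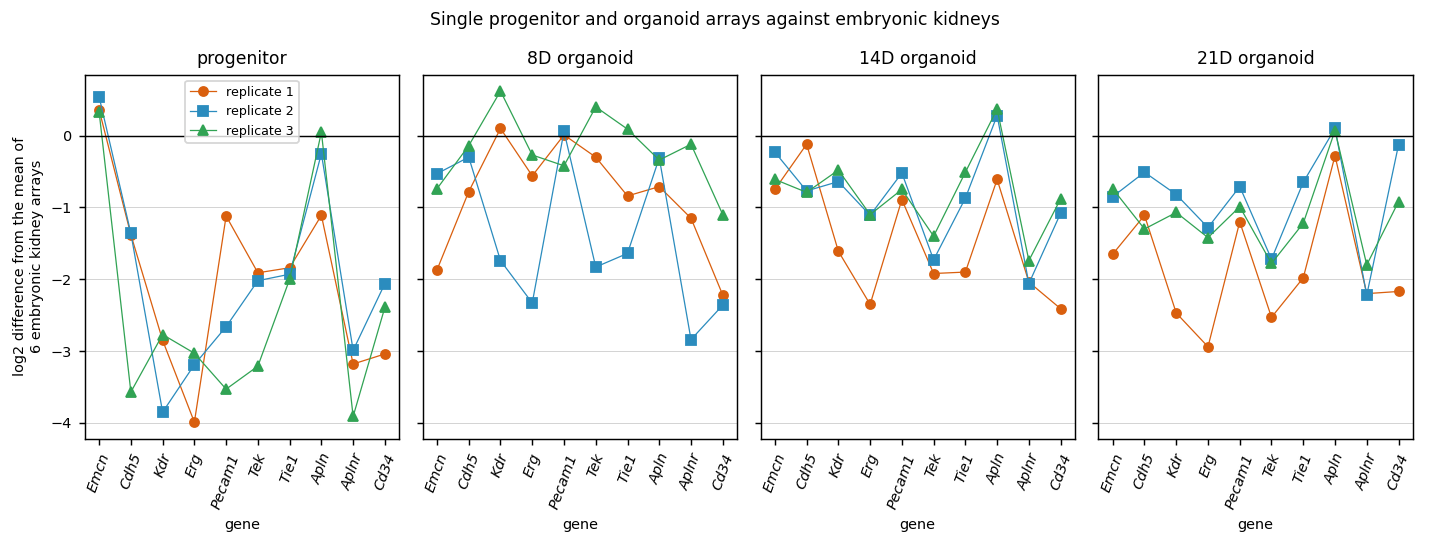
Difference of each progenitor and organoid array from the mean of the 6 embryonic kidney arrays (log2, y axis) for the 10 genes (x axis), with a marker for each replicate and lines only to guide the eye. On 8D replicate 2 Kdr, Erg, Tek, Tie1 and Aplnr lay at -1.74, -2.33, -1.83, -1.64 and -2.84 while Emcn, Cdh5 and Pecam1 lay at -0.53, -0.30 and 0.06.

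Organoids of one age differed from each other in Kdr and Erg more than kidneys did. The SD over 3 arrays of Kdr was 1.24, 0.61 and 0.89 in 8D, 14D and 21D organoids, against 0.09, 0.18 and 0.27 in E12.5, E13.5 and adult kidneys. For Erg it was 1.12, 0.72 and 0.92 against 0.15, 0.20 and 0.43, while the median SD over all genes was 0.179 to 0.196 in organoids and 0.146 to 0.219 in kidneys. On 8D replicate 2, Kdr, Erg, Tek, Tie1, Aplnr and Cd34 were each the lowest of the group and Emcn, Pecam1 and Apln the highest. Replicate 1 was the lowest of the 14D and of the 21D group for 8 members, that is for all but Cdh5 and Aplnr. Other markers moved with these 3 arrays. The mean of 14 blood and myeloid markers was 5.13 on 8D replicate 2 (5.86 and 5.68 on the others), 5.17 on 14D replicate 1 (5.53 and 6.10) and 5.20 on 21D replicate 1 (5.96 and 5.79), and the mean of the pluripotency markers was the highest of each group there, at 8.72, 8.22 and 7.87. Their part in the spread of the members was not tested.

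The 8D organoids remained below embryonic kidneys for Cd34 (-1.89 ± 0.35, adjusted p = 0.000355), Aplnr (-1.37 ± 0.37, adjusted p = 0.00846), Emcn (-1.03 ± 0.25, adjusted p = 0.00485) and Erg (-1.11 ± 0.39, adjusted p = 0.0441). These were 4 lower calls of 10, with 12.0% of all genes called lower, and 0 higher, with 9.11% of genes called higher. At an unadjusted p under 0.05 limma gave 0 higher and 6 lower, with Tie1 and Apln added. Below that level were 7559 of 23986 genes in either direction. Pecam1 (0.00 ± 0.28), Cdh5 (-0.39 ± 0.38) and Kdr (-0.40 ± 0.50) did not pass. Without 8D replicate 2 there were 2 lower calls, Erg (-0.46, adjusted p = 0.476) and Aplnr (-0.64, adjusted p = 0.173) being lost, and Emcn was lost without 8D replicate 1 (-0.61, adjusted p = 0.103). The Erg call was also lost without any single embryonic array, where its adjusted p was 0.0545 to 0.0738, and without the batch term, among the batch 2 arrays alone, with the replicate block, with quantile normalization and with a trended and robust prior (0.0521 to 0.0594). At 14D Aplnr (-1.95 ± 0.37), Tek (-1.69 ± 0.36), Erg (-1.57 ± 0.39), Cd34 (-1.45 ± 0.35) and Tie1 (-1.09 ± 0.31) passed as lower than embryonic kidneys. At 21D the members that did not pass were Cdh5 (adjusted p = 0.0623) and Apln (adjusted p = 0.678), and the largest difference was that of Aplnr (-2.07 ± 0.37, adjusted p = 0.000128).

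Adult kidneys had their own balance of the members. Against embryonic kidneys Aplnr fell by 2.20 ± 0.37 (adjusted p = 1.59e-05), Cdh5 fell by 1.55 ± 0.38 (adjusted p = 0.00135), Cd34 fell by 0.95 ± 0.35 (adjusted p = 0.0273) and Apln fell by 0.72 ± 0.22 (adjusted p = 0.00733). Emcn rose by 0.63 ± 0.25 (adjusted p = 0.0445), a call lost without 7 of the 9 kidney arrays in turn and among the batch 2 arrays alone. The 1 higher call of 10 stood against 24.3% of all genes and the 4 lower calls against 25.4%. Kdr, Erg, Pecam1, Tek and Tie1 did not pass, with fitted differences from -0.53 to 0.39. Without adult replicate 2 the lower calls were 2, as Apln and Cd34 were lost, and Cd34 was also lost without adult replicate 1 (adjusted p = 0.0513). The Apln call was lost without the batch term (-0.60, adjusted p = 0.0713) and the Cd34 call with quantile normalization (-0.86, adjusted p = 0.0619). Between E13.5 and E12.5 kidneys 0 of 10 members and 0 of 23986 genes were called (0% of genes higher and 0% lower). At an unadjusted p under 0.05 limma gave 0 members and 465 genes, and the fitted differences of the members lay between -0.09 and 0.36.

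Set beside adult kidneys, 21D organoids were lower in Tek (-2.41 ± 0.42, adjusted p = 3.13e-05), Emcn (-1.68 ± 0.29, adjusted p = 3.18e-05), Erg (-1.40 ± 0.44, adjusted p = 0.0112) and Tie1 (-1.01 ± 0.35, adjusted p = 0.0196). The 4 lower calls stood against 24.0% of all genes called lower, and 0 members were called higher against 24.4%. Unadjusted, limma gave 1 higher below 0.05 (Apln) and 5 lower (Kdr added, -1.35 ± 0.58, adjusted p = 0.0561). Below that level were 12912 of 23986 genes in either direction. Without 21D replicate 1, Erg (adjusted p = 0.116) and Tie1 (adjusted p = 0.148) were lost and Apln was called higher, which left 2 lower calls and 1 higher call. Tie1 was also lost without adult replicate 1 (adjusted p = 0.0721). Cdh5 (0.59 ± 0.44), Cd34 (-0.12 ± 0.40) and Aplnr (0.12 ± 0.42), the members that were lower in adult than in embryonic kidneys beside Apln, did not pass here.

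Ordering the 10 groups by their means gave 6 members (Cdh5, Kdr, Erg, Tie1, Aplnr and Cd34) the same pair of groups at the top, E13.5 followed by E12.5 kidneys, whose difference did not pass the test. Few steps between neighbours passed the test. For Emcn they were 21D organoid over mesoderm (2.82 ± 0.30, adjusted p = 2.29e-07) and intermediate mesoderm over ESC (1.09 ± 0.29, adjusted p = 0.0160), for Pecam1 mesoderm over progenitor (1.29 ± 0.32, adjusted p = 0.00251) although their arrays overlapped, for Apln mesoderm over E13.5 kidney (1.03 ± 0.25, adjusted p = 0.00286) and for Aplnr E12.5 kidney over 8D organoid (1.24 ± 0.42, adjusted p = 0.0441). For Cdh5, Kdr, Erg, Tek, Tie1 and Cd34 no difference between neighbouring groups passed.

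Vegfa, the ligand of Kdr, was at 11.02, 10.64 and 10.68 in progenitors against 8.86 to 9.33 in embryonic kidneys, a difference of 1.70 ± 0.17 (adjusted p = 5.60e-08) in a comparison in which Kdr was lower. It was lowest in mesoderm (7.56 ± 0.08, SD, n = 3), and adult kidneys had 10.14 ± 0.19. It fell from progenitors to 8D organoids by 0.78 ± 0.20 (adjusted p = 0.00723) and was still higher there than in embryonic kidneys (0.92 ± 0.17, adjusted p = 0.000366). Of the 10 genes of the VEGF list, 2 were higher (Vegfa and the co-receptor Nrp2) and 3 lower (Kdr, Flt4 and the ligand Pgf) in progenitors than in embryonic kidneys, near the 14.2% and 20.0% of all genes, with a median of -0.05. Flt4, the receptor of lymphatic endothelium, was at -2.12 ± 0.20 in progenitors against embryonic kidneys and 1.49 ± 0.23 in 8D organoids against progenitors (adjusted p = 1.42e-08 and 8.07e-05). Flt1, the decoy receptor, did not pass in either comparison (-0.29 ± 0.38 and 0.76 ± 0.45).

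Among the ligands and regulators of Tek, Angpt1 was highest in embryonic kidneys (7.57 to 7.99) and fell by 1.65 ± 0.40 in 8D organoids against them (adjusted p = 0.00368). Ptprb, the phosphatase that dampens Tek signalling in endothelium, was at 8.74, 8.38 and 8.03 in adult kidneys, 6.50 to 6.91 in embryonic kidneys and 4.87 to 5.99 in organoids. The difference of 21D organoids from adult kidneys was -2.93 ± 0.27 (adjusted p = 2.12e-09). Angpt2, the other main angiopoietin, had group means between 4.79 and 6.31, and Angpt4 between 4.76 and 5.20. Of the 7 genes of the angiopoietin list, 3 were lower (Tek, Tie1 and Ptprb) and 0 higher in progenitors than in embryonic kidneys, where 20.0% and 14.2% of all genes were. The counts were the same 3 and 0 at an unadjusted p under 0.05 by limma. Tek and Tie1 are members, and Ptprb is also on the list of further endothelial genes below, so these counts add no separate result. There were 2 higher (Tek and Tie1) and 1 lower (Svep1) in 8D organoids than in progenitors, where 11.7% and 7.69% of all genes were called.

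Apela, the second peptide ligand of Aplnr, differed from its receptor in its course. It was at 9.23, 9.44 and 8.39 in ESCs, 7.71, 5.61 and 5.60 in progenitors and 9.21, 8.55 and 8.23 in 8D organoids, and at 5.77 to 6.43 in embryonic kidneys, where Aplnr was highest. Adult kidneys were at 8.62, 7.99 and 9.36. The rise from progenitors to 8D organoids was 2.49 ± 0.48 (adjusted p = 0.000662) and that from embryonic to adult kidneys 2.67 ± 0.41 (adjusted p = 4.83e-06), whereas Aplnr rose in the first and fell in the second. Podxl, a relative of Cd34 that podocytes and ESCs also make, was at 9.58, 8.20 and 9.73 in 8D organoids and 7.13 to 7.65 in embryonic kidneys, where Cd34 was highest.

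**Figure D4:**
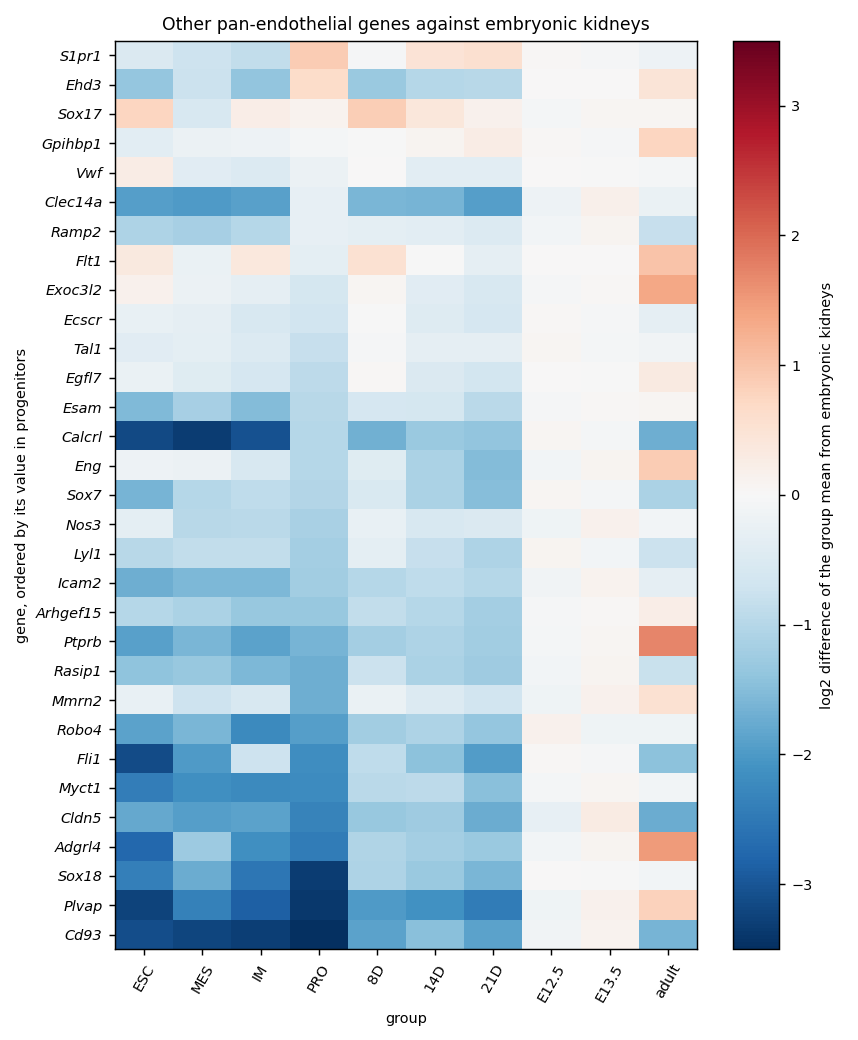
Difference of the group mean from the mean of the embryonic kidneys (log2, colour) for 31 further endothelial genes (rows, ordered by the progenitor value) in the 10 groups (columns; MES, mesoderm; IM, intermediate mesoderm; PRO, progenitor). S1pr1 at 0.90 and Ehd3 head the progenitor column and Cd93 at -3.48 ends it.

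A further 31 genes of general endothelial use were read in the same way. In progenitors 24 of the 31 were lower and 1 higher than in embryonic kidneys, where 20.0% and 14.2% of all genes were. The median was -1.06 against 0.02 over all genes. The difference was -3.27 ± 0.36 for Sox18, a transcription factor of vessel formation, and -3.42 ± 0.32 for Plvap, the diaphragm protein of fenestrated capillaries. The gene that was higher was the sphingosine-1-phosphate receptor S1pr1 (0.92 ± 0.27, adjusted p = 0.0101). From intermediate mesoderm to progenitors 6 of the 31 rose (Esam, Clec14a, S1pr1, Ramp2, Calcrl and Ehd3) and 3 fell (Cldn5, Fli1 and Mmrn2), with 10.7% of all genes called higher and 15.9% lower, and the median of the list was -0.13. Calcrl, the receptor that Ramp2 turns into an adrenomedullin receptor, rose by 2.05 ± 0.29 (adjusted p = 1.48e-05) and Clec14a by 1.60 ± 0.35 (adjusted p = 0.00135). Like Emcn, 3 of these 6 were then lower in 8D organoids than in progenitors, Clec14a at -1.11 ± 0.36, S1pr1 at -0.98 ± 0.32 and Ehd3 at -2.09 ± 0.53 (adjusted p = 0.0313, 0.0319 and 0.00695).

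From progenitors to 8D organoids 13 of the 31 rose and 3 fell, with 11.7% of all genes called higher and 7.69% lower. Sox18 rose by 2.15 ± 0.42 (adjusted p = 0.000758), Plvap by 1.47 ± 0.38 (adjusted p = 0.00723) and Myct1 by 1.28 ± 0.40 (adjusted p = 0.0265). Against embryonic kidneys the 8D organoids were lower in 13 of 31 and higher in 0 (17 and 1 at an unadjusted p under 0.05 by limma), with a median of -0.58. Of all genes 12.0% were called lower and 9.11% higher there. Between 21D and 8D organoids 5 of 31 were lower (Eng, Egfl7, Sox7, Lyl1 and Exoc3l2) and 0 higher (10 and 0 at an unadjusted p under 0.05). Of all genes 5.54% were called lower and 5.95% higher there. Against adult kidneys the 21D organoids were lower in 18 of 31 and higher in 1 (S1pr1), where 24.0% and 24.4% of all genes were. Plvap was at -3.27 ± 0.37 (adjusted p = 5.56e-08).

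Of 16 regulators of endothelial fate, Erg included, 12 were lower and 0 higher in progenitors than in embryonic kidneys (13 and 0 at an unadjusted p under 0.05 by limma). Of all genes 20.0% were called lower and 14.2% higher there. In 8D organoids 6 were higher than in progenitors (Etv2, Erg, Ets2, Tal1, Sox18 and Hhex) and 0 lower (7 and 0 unadjusted), where 11.7% and 7.69% of all genes were called. Erg is a member, and Fli1, Tal1, Sox7, Sox17 and Sox18 are also among the 31 further genes, so the counts of these lists overlap. Among 5 measured lymphatic genes, Lyve1, Flt4 and Mmrn1 were lower and Pdpn higher in progenitors than in embryonic kidneys. Among 9 measured arterial, venous and Notch genes, 5 were lower in that comparison and Notch1 was higher. Both lists stand against the same 20.0% of all genes lower and 14.2% higher. The members' median difference from embryonic kidneys was -2.90 in ESCs, -2.52 in mesoderm, -3.08 in intermediate mesoderm and -2.41 in progenitors, then -0.69 in 8D organoids, -1.18 in 21D organoids and -0.48 in adult kidneys. For the 31 further genes it was -1.03 in progenitors, -0.60 in 8D and -1.07 in 21D organoids.

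**Figure D5:**
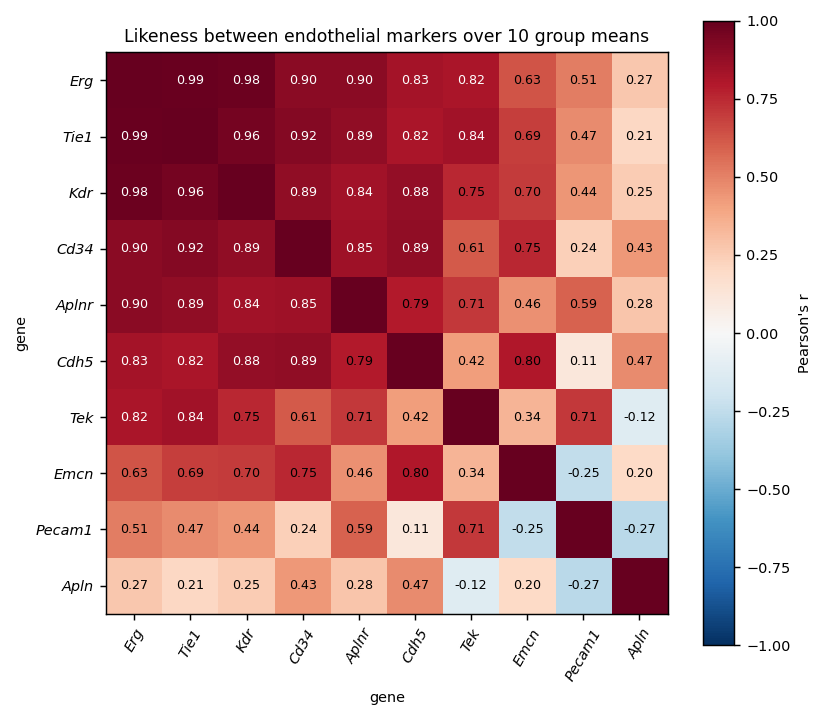
Pearson's r between each pair of endothelial marker genes over the 10 group means (colour and printed value). Erg, Tie1 and Kdr form a block with r of 0.96 to 0.99, and no r of Apln exceeds 0.47.

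Likeness of pattern was measured as Pearson's r over the 10 group means, as a description. Over the 45 pairs the median r was 0.701, with 17 pairs above 0.8 and 3 below 0. Erg and Tie1 were the most alike (r = 0.99), followed by Kdr and Erg (0.98) and Kdr and Tie1 (0.96). Cd34 was close to the same genes (0.92 with Tie1, 0.90 with Erg), as was Aplnr (0.90 with Erg). Emcn was most like Cdh5 (0.80) and its r with Pecam1 was -0.25. Apln had the lowest mean r with the others (0.19), and its r with the receptor Aplnr was 0.28. The group means share arrays from the same batches and cultures, and the kidneys and the cell groups lie far apart, which raises r for every gene that is higher in kidney.

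Genes outside the set with the most similar pattern were taken from the 9923 genes whose group means spanned at least 1 on the log2 scale. For Erg they were Myct1 (r = 0.982), Sox18 (0.974) and Pcdh12 (0.965), beside Tie1 and Kdr, and for Tie1 they were Myct1, Pcdh12, Robo4 and Icam2 (0.962 to 0.987) beside Erg. Kdr had Myct1 (0.971), Hsd11b2 and Stab1. Aplnr had Klhl4 (0.974), Rasip1 (0.973), Cldn5, Cd93 and Flt4, and Tek had Ripply3, Egfl7 (0.959), Arhgef15, Arhgef38 and Ppm1b. The nearest genes to Emcn were Aox3 (0.967), Zeb2os, Abcc9, Cpd and Wdpcp. Abcc9 is on the list of mural and pericyte markers. Of these, 4 of 11 rose (Pdgfrb, Cspg4, Kcnj8 and Abcc9) and 3 fell (Notch3, Tagln and Mcam) at the progenitor step where Emcn rose. Of all genes 10.7% were called higher and 15.9% lower at that step. Cdh5 had Plxnd1 (0.944), Sema5a, Ppp1r13b and Kcne3 beside Cd34, and Cd34 had Phactr1 (0.954), Dync2h1, Gstm7, Icam2 and Rbmx. Pecam1 had Ucp2 (0.907), Dact2, Large2, Fra10ac1 and Lhx1, and Apln had Cdh9 (0.871), Nts, Sqle, Rxrg and Acat2, with lower r than the other members reached.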

How the data were processed

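RNA of 30 samples was hybridised to Affymetrix Mouse Gene 2.0 ST arrays. The authors normalized the raw arrays in R with the packages oligo and limma, RMA being named in the submitters' processing notes, and the deposited values are log2 expression for 23986 gene symbols in 1 row each. The versions, the probe annotation and whether batches were corrected before deposit are not stated. These log2 values entered the fit unfiltered. Group differences came from lmFit and eBayes (limma 3.58.1, R 4.3.3), with a coefficient for each of 10 groups and a batch term (19 residual degrees of freedom), Benjamini-Hochberg adjustment over all genes and a threshold of 0.05. The embryonic kidney value averages the coefficients of both embryonic ages. The procedure was tested on simulated data. The members and gene lists were chosen with earlier results of these data known. All members are named, with the 5 most similar genes of each (predicted genes, microRNA, small nucleolar, olfactory and vomeronasal genes left out), the families of their ligands and receptors, and up to 4 called genes per list with the largest change, beside short called lists given in full. The labels do not say whether replicate numbers pair arrays, and the reported fit treats the arrays as unpaired. Figures and summaries were made with Python 3.11.15, pandas 2.3.3 and matplotlib 3.10.9. Alternatives were no batch term, batch 2 arrays alone, the compared groups alone, a replicate block, a filter on dim genes, quantile normalization, a trended and robust prior, array weights and leaving out each array.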

Additional observations from a re-analysis of the deposited data

How the results depend on the processing

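Of the 120 values of 10 members in 12 comparisons, 44 passed the test, 69 passed it in the reported fit or under an alternative and 51 under none, of which 18 changed sign under some alternative. No value that passed in the reported fit changed sign under any alternative run. Leaving out 1 array moved Aplnr in 14D against 8D organoids between -1.31 and 0.048 (0.048 without 8D replicate 3) and Tek in 8D organoids against embryonic kidneys between -1.08 and 0.036 (0.036 without 8D replicate 2). The changed counts of called members that follow are those that moved by a ratio above 1.5 or to or from 0. Smaller changes also occurred. In 8D organoids against ESC, Tie1 and Cd34 were added as higher without the batch term, with the replicate block and with the filter on dim genes. Array weights added Aplnr and Cd34 there, and Tie1 and Apln as lower in 8D organoids against embryonic kidneys. With batch 2 arrays only, mesoderm against ESC had 1 higher, progenitor against intermediate mesoderm 2 lower, 21D against 8D organoids 2 lower, 21D organoids against adult kidneys 1 higher and adult against embryonic kidneys 0 higher. With the compared groups only, the fits have few residual degrees of freedom, and mesoderm against ESC had 2 lower, intermediate mesoderm against mesoderm 4 lower, progenitor against intermediate mesoderm 0 lower, progenitor against embryonic kidneys 1 higher, 8D organoids against ESC 2 higher, 8D organoids against progenitors 1 higher and 0 lower, 21D against 8D organoids 0 lower, 8D organoids against embryonic kidneys 2 lower, 21D organoids against adult kidneys 1 higher and adult against embryonic kidneys 2 higher. Intermediate mesoderm against mesoderm had 2 lower without the batch term, 2 with the replicate block, 3 with the filter on dim genes and 3 with array weights. Adult against embryonic kidneys had 0 higher with quantile normalization and with array weights. The cause of these changes was not tested.

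To look for pairing, the group mean of each gene was subtracted from every array. Over 45 pairs of groups the median correlation of these deviations was 0.02, 0.01 and -0.01 for same-numbered arrays of replicates 1, 2 and 3. The highest r was 0.52, 0.15 and 0.45, and 7, 3 and 9 pairs exceeded 0.1. A median over all pairs cannot show whether some groups came from shared culture runs, and this was not tested. Leaving out 1 array at a time gave 1 to 3 higher for mesoderm against ESC, 1 to 2 lower for intermediate mesoderm against mesoderm, 2 to 4 higher and 1 to 2 lower for progenitor against intermediate mesoderm, 3 to 7 higher for 8D organoids against ESC, 5 to 7 higher for 8D organoids against progenitors, 0 to 2 lower for 14D against 8D organoids, 0 to 1 higher and 0 to 4 lower for 21D against 8D organoids, 2 to 6 lower for 8D organoids against embryonic kidneys, 0 to 1 higher and 2 to 5 lower for 21D organoids against adult kidneys, and 0 to 1 higher and 2 to 4 lower for adult against embryonic kidneys. The median likeness of the members was 0.600 with Spearman's rho, 0.636 over all 30 arrays and 0.645 to 0.692 with 1 replicate number left out. The batch term was 0.70 for Pecam1 and -0.68 for Apln (batch 1 minus batch 2; adjusted p = 0.364 and 0.216). With 3 arrays per group, and organoid SDs near 1 for Kdr and Erg, smaller differences could not be resolved.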
